A study of Homo sapiens with 18 samples.

Results

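The m6A landscape of wild-type LoVo cells was described from the 24302 peaks that the authors listed under the wild-type (WT) name, of 39708 deposited peaks in all. The other 15406 peaks carry the K513R name and were not used. LoVo, an established line from a human colorectal carcinoma, carries unaltered METTL3 in the WT cells. METTL3 is the catalytic subunit of the main m6A writer of mRNA. No treatment is named in the labels. The series holds 18 libraries in 6 groups of 3, and this account uses the 3 input and 3 immunoprecipitated (IP) MeRIP libraries of the WT cells, with the 3 WT RNA-seq libraries for transcript levels. In MeRIP-seq, poly(A) RNA is broken into fragments of about 100 to 200 nt, 10% is kept as input, and an antibody to m6A pulls down methylated fragments from the rest. The labels number the libraries but do not say that they came from separate cultures, so errors and p-values measure only the spread between these libraries. All libraries are bulk, so methylation of few transcripts in every cell and of many transcripts in few cells cannot be told apart.

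N6-methyladenosine (m6A) is the most common internal modification of mRNA. A complex of METTL3, METTL14, WTAP and accessory proteins writes it as the transcript is made, mostly within a short sequence centred on an adenosine followed by cytidine, for which GGACU is a favoured form. FTO and ALKBH5 remove it, and proteins of the YTH and IGF2BP families bind methylated transcripts and alter their decay, translation or stability. Mapping studies in many cell types have placed m6A mainly in long internal exons and around stop codons, which usually lie in the last exon, and little of it close to splice junctions.

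The stretches below show the favoured word where a sequence could be read, that is, in RefSeq gene starts and miRNA hairpins (GRCh38.p14) that lie in exons of expressed genes. A gene-start window holds 250 bases before the RefSeq start and 50 after it, so a word can lie upstream of that start and still inside an exon of the count table, as it does for SLMAP, IL17D, PPP4R3B and the window in NDOR1. No genome was used here, so most of each peak was not searched. Each line gives 25 bases of the transcript strand, 5′ to 3′, with the word GGACT in capitals (RNA has U for T), from peaks that lay above the average enrichment defined below. They are shown because the antibody signal and a candidate base can be seen together there. A match to 5 letters is a description, and it does not show that this adenosine is methylated.

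SLMAP, chr3:57757114-57757138, plus strand: ctccgggcgaGGACTggcggtggct

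SLC39A7, chr6:33200881-33200905, plus strand: tctaaaggcgGGACTgccacgtcca

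IL17D, chr13:20702960-20702984, plus strand: gcctattcttGGACTgctttcctta

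PPP4R3B, chr2:55617666-55617690, minus strand: gctgctcatgGGACTtgtcggccgc

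NDOR1 (window of LOC122513141), chr9:137217308-137217332, plus strand: ctgatcgccaGGACTgcgttctggg

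CHMP1B, chr18:11851430-11851454, plus strand: ggccgggagcGGACTtaccttacct

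RUBCN (hairpin of MIR922), chr3:197674537-197674561, minus strand: tccctgtcctGGACTggggtcagac

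SLMAP, a tail-anchored membrane protein of the STRIPAK phosphatase complex, had 840, 620 and 728 IP counts in the peak over its stretch in replicates 1 to 3, against 80, 56 and 74 input counts. The peak of SLC39A7, a zinc transporter, had 189, 167 and 181 IP counts against 34, 18 and 42 in the inputs. In IL17D, a cytokine gene, the counts were 227, 172 and 206 in IP and 41, 34 and 50 in input. In all 3 genes every IP library lay above every input library. The log2 IP over input, scaled as described below, was 2.21 ± 0.12 (SE of the fit, n = 3) in SLMAP, 1.35 ± 0.18 in SLC39A7 and 1.10 ± 0.15 in IL17D. It was 0.85 ± 0.11 in PPP4R3B, which encodes a regulatory subunit of protein phosphatase 4, and 0.64 ± 0.09 in CHMP1B, an ESCRT-III gene. The peak of RUBCN, a regulator of autophagy, was the thinnest of the set, with 60, 51 and 51 IP counts against 10, 8 and 12 input counts. Its log2 IP over input was 1.26 ± 0.27.

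Over all sequence that could be read, GGACT was found at 223 of 167007 exonic positions inside WT peaks, or 1.34 per 1000 positions. Outside peaks it was found at 1618 of 1516126 positions, or 1.07 per 1000. The same letters on the opposite strand, AGTCC on the transcript strand, were found at 1.00 per 1000 positions inside peaks and 1.09 outside. The word read backwards, TCAGG, which can share its final GG with GGACT, was found at 1.12 per 1000 inside peaks and 1.15 outside. Of these 3 words GGACT alone was denser inside peaks, in counts that carry no test because neighbouring positions are not independent. The related words GGACA and GAACT were found at 1.01 and 0.844 per 1000 positions inside peaks and at 0.908 and 0.724 outside, and GGACC at 1.35 and 1.40. The GC content was 64.5% inside peaks and 63.9% outside. Of all 35116 gene-start windows of 300 bases, 25.3% hold GGACT on the transcript strand and 44.2% on either strand, so a hit in 1 window says little by itself. GGACT was as dense inside peaks below the average (1.39 per 1000) as inside those above it (1.38 per 1000, 25 hits), so no order of strength could be read from this sequence.

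Enrichment was measured as log2 IP over input from the raw counts in each peak, scaled within the IP and within the input libraries. Its zero is the count-weighted average of the WT peaks, not an equal level of IP and input. The inputs held 2531713 to 3123345 counts in WT peaks and the IP libraries 5843694 to 6604359, and the read totals outside peaks are not in the table. Of the 24302 peaks, 16421 had enough counts for edgeR's quasi-likelihood fit, and 7881 did not. In the fit, 5978 peaks (36.4%) lay above the average and 2928 (17.8%) below it at a Benjamini-Hochberg adjusted p under 0.05. The peaks were called by the authors on the same IP and input libraries, so these calls rank peaks against each other and do not test whether a peak is methylated. The split depends on the zero. With TMM factors computed over all 6 libraries together, the median of all tested peaks moved from 0.26 to 0.0092, 4358 peaks lay above and 4404 below, and the share of calls above the average went from 67.1% to 49.7%. Comparisons between groups of peaks are therefore given relative to the median of all peaks, since that scaling shifts all peaks alike.

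The range of enrichment was wide against its error. Among the 10007 peaks with a mean of at least 20 counts in the inputs, called well covered here, the 5th percentile was -0.82, the median 0.02 and the 95th percentile 1.45, with a median SE of 0.14. Across these peaks the replicates correlated with Pearson's r of 0.859, 0.863 and 0.900, where neighbouring peaks share transcripts and libraries. The biological coefficient of variation was 7.32%. Well covered peaks on abundant transcripts were weaker, with a Spearman correlation of -0.28 between enrichment and the RNA-seq level of the gene, across peaks that share libraries and, in part, genes. The input coverage that sets the precision also rises with that level.

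The RNA-seq libraries (47105235 to 51886164 counts in genes) were of an epithelial kind. Levels are given in CPM, the count scaled to a fixed library total. EPCAM stood at 239 ± 30.6 CPM (SD, n = 3), KRT8 at 9097 ± 1991 and CDX2 at 10.9 ± 0.457, while 2 of the 9 intestinal epithelial markers were nearly absent, KRT20 at 0.194 CPM and CEACAM5 at 0.0540. The summed level of 5 fibroblast markers was 28.9 to 42.4 CPM over the libraries, of 4 endothelial markers 1.08 to 1.54 CPM and of 5 blood markers 7.39 to 8.27 CPM, with none at exactly 0.

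Most WT peaks lay in last exons and in long internal exons. By the exon that held its midpoint, a peak fell in the first 400 bases of a last exon in 3852 cases (15.9%), further along a last exon in 7209 (29.7%) and in an internal exon of at least 400 bases in 7597 (31.3%). These classes together held 76.8% of the peaks. In the same order they make up 5.63%, 28.4% and 37.0% of the exon bases of expressed protein-coding genes. Internal exons under 400 bases held 2715 peaks (11.2%), first exons 2317 (9.53%) and genes of 1 exon 612 (2.52%). Exons here are the merged exons of all transcripts in the authors' count table, so a rare transcript can lengthen an exon or add one, and coding and untranslated parts were not told apart.

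Relative to the exon bases on offer in 12957 expressed protein-coding genes, the opening of the last exon stood out. It held 77.4 peaks per 100 kb, against 27.6 over all exon bases and 13.9 in short internal exons. Single-exon genes held 54.3 and first exons 46.6 peaks per 100 kb. Long internal exons, at 23.5, lay below the overall density, and the remainder of last exons, at 29.1, slightly above it. The large numbers of peaks there go with the 37.0% and 28.4% of exon bases that these classes make up.

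**Figure D1:**
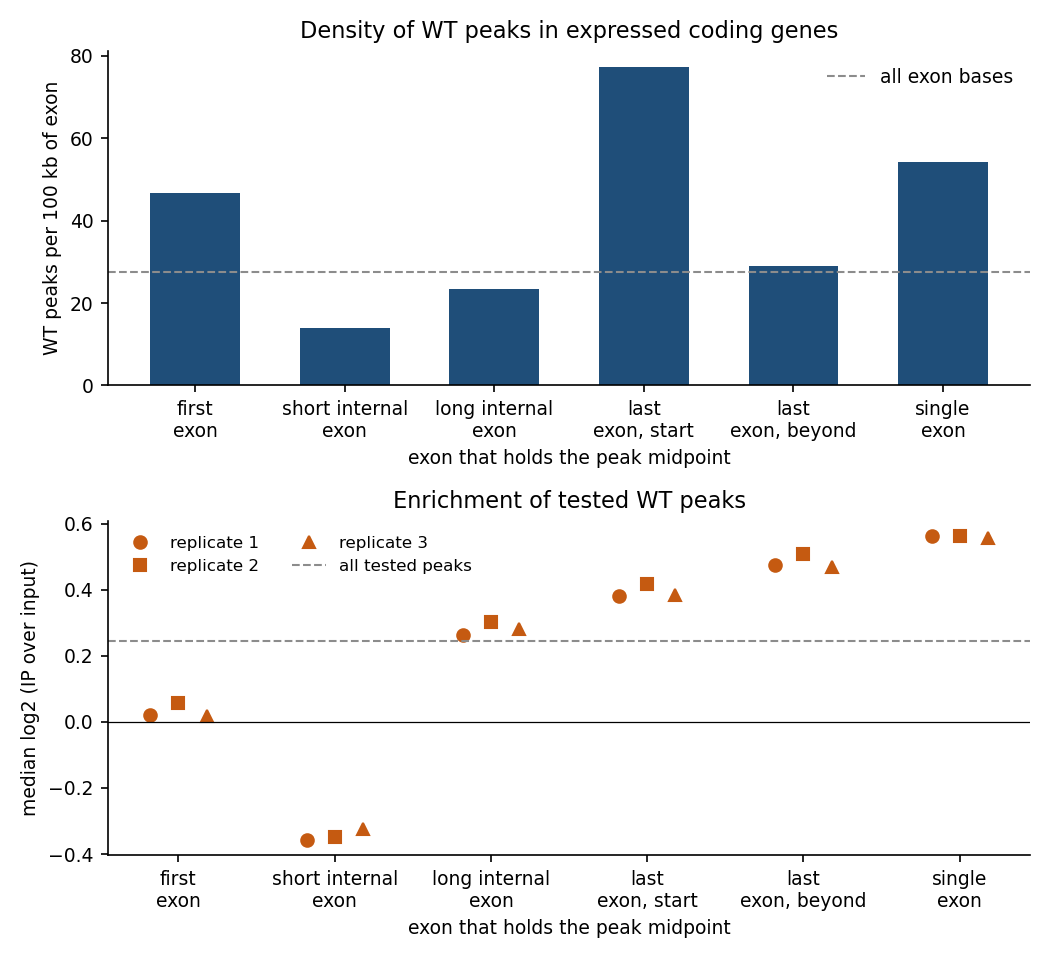
Upper panel: WT peaks per 100 kb of exon in expressed protein-coding genes, by the exon that holds the peak midpoint, with the dashed line at 27.6 for all exon bases. Lower panel: median log2 IP over input of the tested peaks of each class in each of the 3 replicates, with the dashed line at 0.25 for all tested peaks. The start of the last exon has the densest peaks (77.4 per 100 kb), and short internal exons lie lowest in both panels (13.9 per 100 kb and -0.33 to -0.36).

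Strength followed a related but different order. The median log2 IP over input of tested peaks was -0.36, -0.35 and -0.33 in replicates 1 to 3 in short internal exons, and 0.26, 0.30 and 0.28 in long ones. In the first 400 bases of last exons it was 0.38, 0.42 and 0.38, and beyond them 0.47, 0.51 and 0.47. Peaks of first exons stood at 0.03 ± 0.02 (SD over 3 replicates) and those of single-exon genes at 0.56 ± 0.0038, beside 0.25 ± 0.02 for all tested peaks. The replicate medians of these 6 classes did not overlap with each other. Of the tested peaks in short internal exons, 176 of 2077 lay above the average and 960 below, and in last exons beyond 400 bases it was 1961 of 4280 above and 394 below. First exons were thus dense in peaks but lower in strength than the median of all tested peaks, with 21.3% of them above the average beside 36.4% of all. The difference between long and short internal exons was 0.63, and leaving out 1 replicate gave 0.61 to 0.64.

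Within last exons the peaks gathered shortly after the final splice junction. The density was 39.6 peaks per 100 kb in bases 0 to 99 of the last exon, 88.2 in bases 100 to 199 and 103.9 in bases 200 to 299. It fell to 55.8 in bases 500 to 599 and lay between 24.7 and 30.8 from base 1600 to base 1999. The median log2 IP over input was -0.08 in the first 100 bases, 0.52 in bases 200 to 299, and 0.60 to 0.68 in the bins from base 300 to base 699. Strength thus reached its highest values slightly downstream of the highest density. In the 5327 last exons of at least 2000 bases, 54.5% of 7278 peaks had their midpoint in the opening part when the exon was divided into 3 equal parts, 24.4% in the middle part and 21.1% in the final part. A peak is wide against these bins, with a median of 242 exonic bases, and a midpoint within 100 bases of a junction can only come from a short peak or from a peak that also covers the exon before it.

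**Figure D2:**
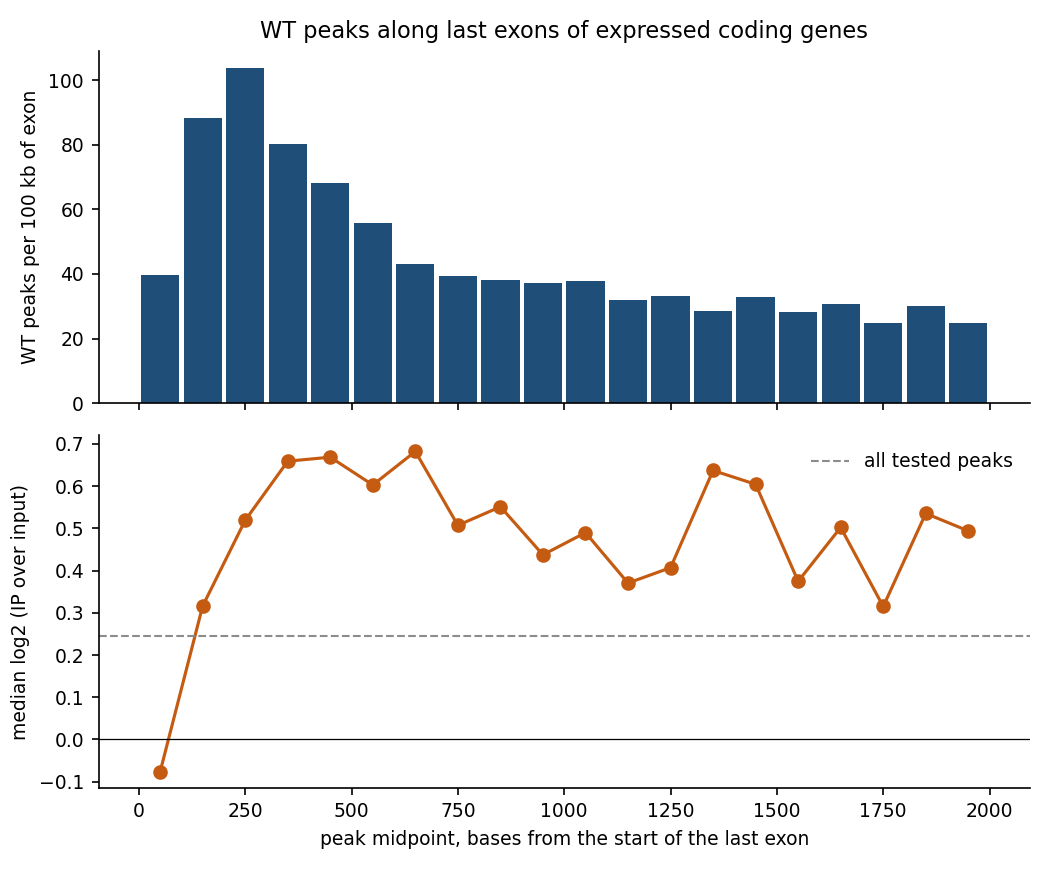
Upper panel: WT peaks per 100 kb of last exon in bins of 100 bases from the start of the exon, in expressed protein-coding genes. Lower panel: median log2 IP over input of the tested peaks in each bin, with the dashed line at 0.25 for all tested peaks. Density is highest in bases 200 to 299 (103.9 per 100 kb), and the median rises from -0.08 in the first bin to 0.68 in bases 600 to 699.

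Internal exons showed a steep relation to length. A WT peak was found in 0.811% of the 40204 internal exons under 100 bases, in 1.61% of those of 100 to 199 bases and in 4.86% of those of 200 to 399 bases. From there the share rose to 14.2% at 400 to 799 bases, 23.2% at 800 to 1599 bases, 27.4% at 1600 to 3199 bases and 41.7% at 3200 bases or longer. Longer exons offer more room, but density per base also differed, from 11.6 peaks per 100 kb under 100 bases to 27.8 at 400 to 799 bases and 20.6 in the longest. The median log2 IP over input was -0.37 ± 0.05 (SD, n = 3), -0.43 ± 0.03 and -0.23 ± 0.02 in the 3 shortest classes, and 0.15 ± 0.02 at 400 to 799 bases. It was 0.34 ± 0.03 at 800 to 1599 bases and did not go on rising with length, with 0.34 ± 0.02 and 0.32 ± 0.02 in the 2 longest classes. Every replicate of the 3 shortest classes was below every replicate of the 4 longest. The sign of the class of 400 to 799 bases depends on the zero and on coverage, since it stood at -0.0079 ± 0.03 among well covered peaks.

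**Figure D3:**
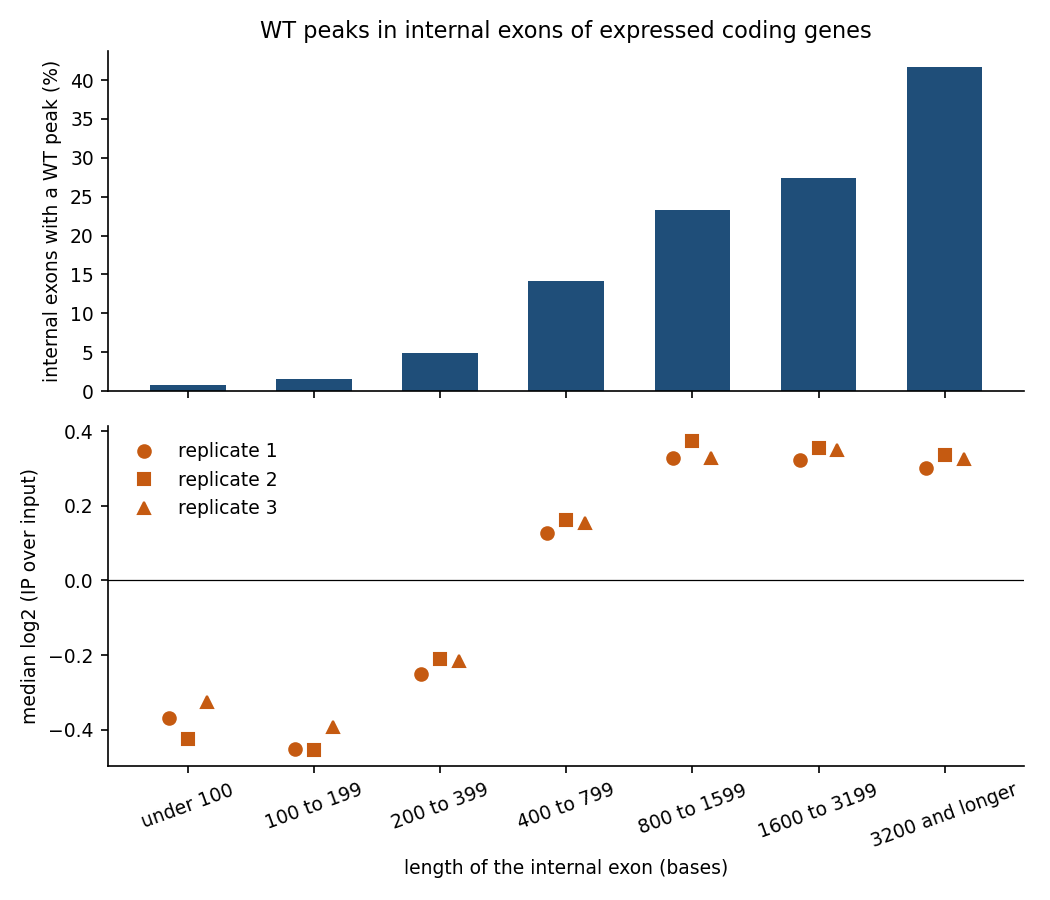
Upper panel: share of internal exons of expressed protein-coding genes that hold the midpoint of a WT peak, by exon length. Lower panel: median log2 IP over input of the tested peaks of each length class in each of 3 replicates. The share goes from 0.811% to 41.7%, and the medians of the 3 shortest classes lie below those of the 4 longest in every replicate.

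The edges of long internal exons looked like the start of the last exon. In internal exons of at least 800 bases, the density was 15.6 peaks per 100 kb within 100 bases of the nearer junction, 25.8 at 100 to 199 bases and 28.6 at 200 to 299 bases. It was 28.0 at 300 to 399 bases and 20.7 further in. The median log2 IP over input in the same bins was -0.12 ± 0.02 (SD, n = 3), 0.14 ± 0.02, 0.38 ± 0.03, 0.46 ± 0.03 and 0.39 ± 0.02. Weak peaks therefore lay at both kinds of exon edge, and strength levelled off beyond about 300 bases.

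The same order appeared inside single genes, where the transcript level is shared. In 340 genes with well covered peaks in both places, peaks of the last exon exceeded those of short internal exons by a median of 0.58 ± 0.0057 (SD, n = 3) on the log2 scale. The difference was positive in all 3 replicates in 232 of these genes and negative in all 3 in 45. Between long and short internal exons of the same gene the median difference was 0.42 ± 0.04 in 413 genes, with 260 positive and 56 negative throughout. Last exons exceeded first exons by 0.30 ± 0.05 in 284 genes (136 positive and 62 negative) and long internal exons by 0.16 ± 0.02 in 589 genes (265 positive and 189 negative). The last of these orders was thus far from general. Peaks of 1 gene could differ widely, and in the 910 genes with at least 3 well covered peaks the median range was 1.09 on the log2 scale. In 103 of them it was at least 2.

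The 15 strongest peaks named here are the highest by fitted log2 IP over input among well covered peaks, 1 a gene. Of these, 10 lay in last exons, 4 in long internal exons and 1 in a single-exon gene, in exons of 655 to 7698 bases. Last and long internal exons held 72.1% of all well covered peaks. The ranking depends on the minimum of input counts. Of the 100 strongest peaks, 25 stayed when the minimum was taken over all 6 libraries. Tested peaks that were not well covered reached 3.04 in GEN1 and 2.97 in FZD7. The grouping by function below only orders the 15 genes, and it was not tested. Since the ranking used this contrast, the values describe the peaks and are not tested.

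The strongest was in NR2F2, a nuclear receptor and transcription factor of mesoderm and vein development, at chr15:96337504-96337985 near the start of its last exon. It had 3538, 2819 and 3927 IP counts in replicates 1 to 3 against 202, 151 and 193 input counts. After scaling to CPM of the counts in tested peaks this was 525, 507 and 595 in IP and 70.9, 61.3 and 62.6 in input, a log2 difference of 3.06 ± 0.09 (SE). The NR2F2 transcript itself was modest, at 16.4 CPM in RNA-seq. HOXA13, a homeobox gene of the hindgut and limb tip, had the deepest peak of the 15, with 8175, 6466 and 8009 IP counts and 645, 546 and 627 input counts. Its midpoint lay 213 bases into a long internal exon (chr7:27197855-27199315), and its log2 value was 2.46 ± 0.08. The peak covers 748 exonic bases over 1461 genomic bases and reaches into the exon before, so the place of the signal is not resolved. In both genes every IP value was over 5 times every input value on the scaled counts.

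Other transcription regulators followed. ZBTB21, a BTB zinc finger gene, had 392, 397 and 468 IP counts against 36, 15 and 33 input counts in a peak 3097 bases into its last exon, and a log2 value of 2.74 ± 0.17. Its replicates were spread more than those of NR2F2, from 2.16 to 3.45, with the low input count of replicate 2 giving the highest. ZNF316, a zinc finger gene, had 647, 477 and 685 IP counts against 52, 33 and 49, and THAP7, a chromatin-associated repressor, 690, 682 and 753 against 68, 45 and 49. Their log2 values were 2.58 ± 0.13 and 2.55 ± 0.13. MDM2, the ubiquitin ligase of p53, had 1089, 792 and 956 IP counts against 85, 73 and 75 in a peak that also touches another gene on its strand, at 2.43 ± 0.11.

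Among DNA repair genes, FANCM, a translocase of the Fanconi anaemia pathway, had 795, 619 and 834 IP counts against 57, 61 and 49 input counts, and a log2 value of 2.57 ± 0.13. Its peak covers 2337 exonic bases over 7693 genomic bases, so the place of the signal inside it is not resolved. ERCC6L2, a helicase-like repair protein, had 533, 432 and 504 IP counts against 47, 20 and 45 input counts in a 6223-base internal exon, at 2.55 ± 0.15. In both genes the lowest IP value was above 4 times the highest input value on scaled counts.

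Of the genes for glycosylation, membrane and trafficking proteins, PIGF, which acts in the synthesis of the GPI anchor, had 364, 297 and 369 IP counts against 25, 17 and 23 input counts. At 2.81 ± 0.16 it came next after NR2F2 among well covered peaks, and its last exon, at 655 bases, was the shortest exon of the 15. PCNX3, a multi-pass membrane protein of the pecanex family, had 424, 408 and 430 IP counts against 24, 28 and 32, at 2.74 ± 0.15. MYORG, a glycosidase of the endoplasmic reticulum, and ALG11, a mannosyltransferase of N-glycan synthesis, stood at 2.48 ± 0.16 and 2.45 ± 0.16. WSCD1 was at 2.50 ± 0.16, the endocytic adaptor gene SH3BP4 at 2.46 ± 0.17 and ITPRIPL2, whose peak touches another gene, at 2.37 ± 0.15. The next gene outside the 15, ERCC6L, stood at 2.37 ± 0.15, so the boundary at the fifteenth is not a gap. In all 15 peaks the 3 IP values lay above the 3 input values on scaled counts.

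**Figure D4:**
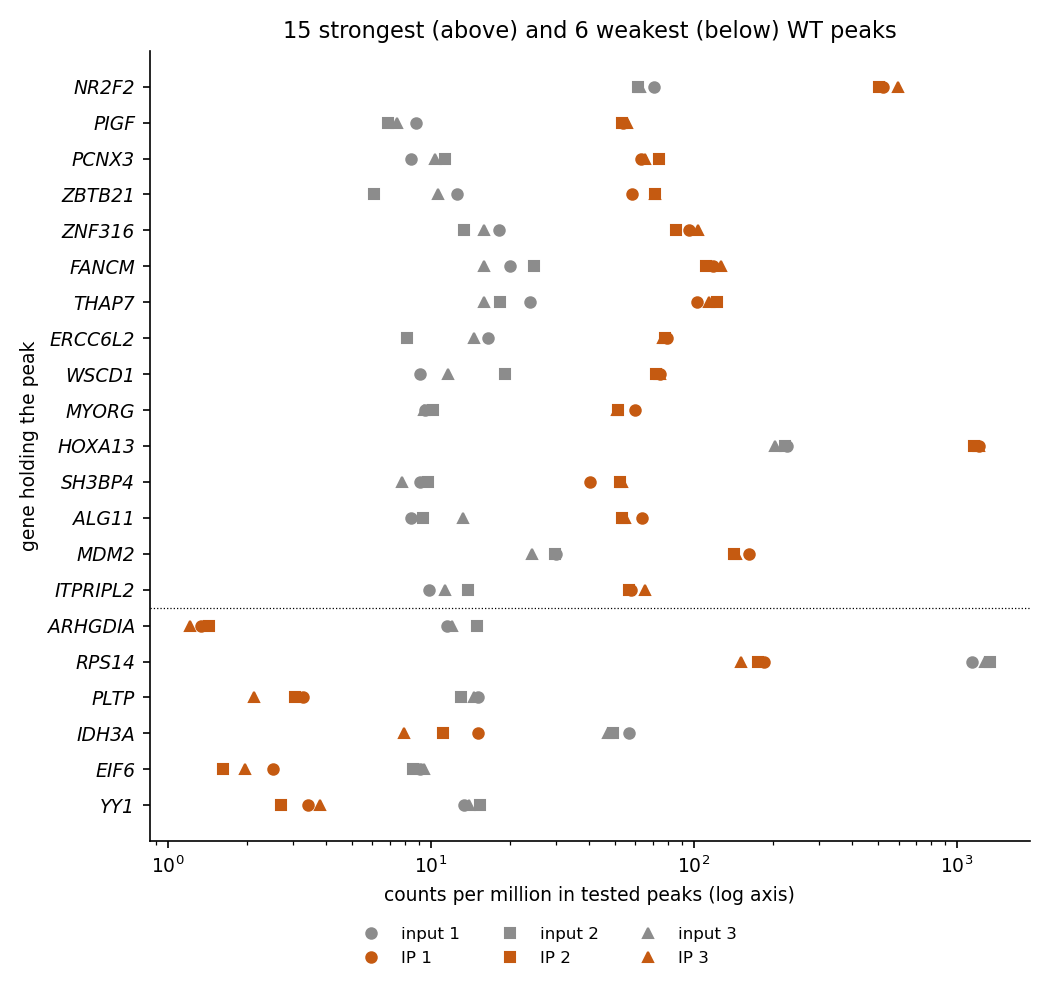
CPM in tested peaks (log axis) in each input (grey) and IP (orange) library for the 15 strongest and the 6 weakest well covered WT peaks, 1 a gene, with the shape of the point giving the replicate. IP lies to the right of input in the 15 upper peaks and to the left of it in the 6 lower ones, with no overlap within a peak.

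At the other end stood mostly short peaks early in their genes, 5 of 6 in exon 1 or 2. RPS14, which encodes a protein of the small ribosomal subunit, had 1246, 974 and 995 IP counts against 3247, 3281 and 3933 input counts in a peak of 68 bases at the very start of its first exon, at -2.87 ± 0.08. The raw IP counts were thus below the raw input counts in every replicate, although the IP libraries hold more counts in peaks. ARHGDIA was the lowest at -3.24 ± 0.29, with 9, 8 and 8 IP counts against 33, 37 and 37. PLTP, a lipid transfer protein gene, was at -2.34 ± 0.25 and IDH3A, a subunit of the mitochondrial isocitrate dehydrogenase, at -2.16 ± 0.17. EIF6 and YY1, a translation factor and a zinc finger transcription factor, were at -2.12 ± 0.29 and -2.08 ± 0.24. Of these 6 peaks, 3 cover fewer than 100 exonic bases, and the mean IP count was above the mean input count in 0 of 6. Among all well covered peaks, 70 had fewer IP than input counts.

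The authors' deposited table gives some of these weak peaks folds that place them otherwise than the counts. The log2 values here are relative to the average WT peak, so the 2 scales need not share a zero. The median of the deposited fold over all WT peaks was 5. By that table's own fold enrichment, EIF6 stood at 15.5, YY1 at 11.2 and PLTP at 9.09. RPS14 stood at 6.7, IDH3A at 2.4 and ARHGDIA, the weakest by counts, at 1.76. The 15 strongest peaks stood at 14.1 to 40. Of the 1605 well covered peaks with a fold of at least 10 in the authors' deposited table, 5 had a log2 value under -1 by counts, in CSTF3, RALA, EIF6, RUVBL1 and YY1. RALA is a small GTPase gene with 396, 363 and 378 IP counts against 475, 447 and 560 input counts in its peak, beside a fold of 31.4 in the authors' deposited table. Across well covered peaks the 2 measures had a Spearman correlation of 0.78, as a description over peaks of the same libraries. No label or header gives the formula of that fold.

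The 6 peaks with the most IP counts lay on 3 nuclear and 3 mitochondrial transcripts, on opposite sides of the median of all peaks. PTMA, which encodes prothymosin alpha, had 132670, 125395 and 129317 IP counts against 102578, 102009 and 136732 input counts, and a log2 value of -0.98 ± 0.08. The nucleolar protein genes NCL and NPM1 had log2 values of -0.72 ± 0.07 and -0.80 ± 0.07. NCL alone had 111799 to 123873 IP counts and 79694 to 99958 input counts. These 3 lay below the average. The other 3 were those of MT-ATP6, MT-ND4 and MT-ND1, described next.

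Mitochondrial transcripts carried 17 WT peaks, at 8.11%, 11.7% and 9.25% of the IP counts and 5.51%, 7.17% and 5.93% of the input counts in peaks. Replicate 2 was highest in both. The peak of MT-ATP8, a subunit of ATP synthase, stood apart with 38571, 45038 and 43796 IP counts against 4020, 4302 and 4619 input counts and a log2 value of 2.14 ± 0.12. It overlaps another gene on the same strand, as do the peaks of several other mitochondrial genes, and reads of the shared stretch cannot be assigned. MT-ND2, a subunit of respiratory complex I, had 35671, 40284 and 41085 IP counts against 7202, 7942 and 8132, at 1.16 ± 0.11. MT-ND1 and MT-ND4, of the same complex, were at 1.00 ± 0.27 and 0.93 ± 0.25, and MT-ATP6 at 0.69 ± 0.26 with no call. The calls of MT-ND1 and MT-ND4 rest on the setting. By edgeR's quasi-likelihood test they were lost without replicate 3 (adjusted p = 0.179 and 0.157), with TMM factors over all 6 libraries (0.0738 and 0.0796), without a low-count filter (0.0547 and 0.0576) and in the upper 50% of peaks by score (0.314 and 0.389). MT-ATP6 gained a call without replicate 1 or 2, with a mean input of at least 20 counts (adjusted p = 0.0448 by edgeR) and by DESeq2 (adjusted p = 0.0339). It also gained one with the replicate number as a block. Peaks of MT-CO1, MT-CO2 and MT-CO3 had values of 0.12 ± 0.24, -0.09 ± 0.14 and -0.26 ± 0.12. Of 16 tested peaks on the 13 mitochondrial mRNAs, 6 lay above the average and 0 below by edgeR, 8 and 0 by DESeq2, and 7 and 0 at an unadjusted p under 0.05. With TMM factors over all 6 libraries it was 3 above and 2 below. With the replicate number as a block, which keeps input and IP paired, it was 11 above and 2 below. The count rested on single replicates too, with 9 above and 0 below without replicate 1, 9 and 2 without replicate 2, and 2 and 0 without replicate 3.

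Summed over the peaks of a gene that do not overlap one another, the strongest enrichment was again in NR2F2. Among the 2879 genes with at least 3 peaks and a mean of at least 20 input counts, its 5 peaks gave a log2 IP over input of 2.87 ± 0.16 (SD, n = 3), against a median of 0.29 for these genes. GEN1, a resolvase of recombination intermediates, followed at 2.28 ± 0.38, with 375, 231 and 286 IP counts against 36, 24 and 19 input counts. HOXA13 was at 2.26 ± 0.07, FANCM at 2.23 ± 0.35, the Wnt receptor gene FZD7 at 2.12 ± 0.38 and DNAJC14, a co-chaperone gene, at 2.02 ± 0.09. HOXA13 lay above DNAJC14 in every replicate, while the intervals of GEN1, FANCM and FZD7 span both. In NR2F2 1 of 4 tested peaks lay above the average, whereas in DNAJC14 it was 3 of 3.

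Genes with the most peaks were long and not strongly enriched. The 10127 genes with a peak mostly had few, with 3810 at 1 peak, 2816 at 2 and 72 at 10 or more. KMT2A, a histone H3 lysine 4 methyltransferase, had 25 peaks, of which 7 lay above and 7 below the average, with fitted values from -0.91 to 1.41. AHNAK, a giant scaffold protein gene, had 20 peaks, 4 above and 9 below. EPPK1, the cytoskeletal linker epiplakin, also had 20, of which 11 were tested, 8 above and 2 below. ZC3H11A, an mRNA export factor gene, had 20 peaks, some of which also lie in an overlapping gene and cannot be assigned between them. ZFHX3, a transcription factor gene, had 19 peaks and DST, another cytoskeletal linker gene, 15. Some of these peaks overlap each other, so the same reads can count in several of them. Counting only peaks that do not overlap one another, EPPK1 had 9, ZC3H11A 10 and KMT2A 20. AHNAK, ZFHX3 and DST kept all of theirs. Over the peaks so counted, the summed log2 value was -0.04 ± 0.05 (SD, n = 3) in KMT2A and -0.04 ± 0.02 in AHNAK. It was 0.45 ± 0.26 in EPPK1 and 0.22 ± 0.04 in DST.

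A WT peak was present in 9602 of 12957 expressed protein-coding genes (74.1%), where expressed means a mean of at least 1 CPM in RNA-seq. The share differed with level. It was 38.5% under 0.5 CPM per kb of exon, 80.4% at 2 to 8 and 81.5% at 8 to 32, but 72.9% at 32 and above. The share was thus lower in the most abundant class than in the classes of middling level, with no test of the difference. By the longest exon of the gene, the share went from 39.8% under 500 bases to 58.9% at 500 to 999 bases and 84.8% at 4000 bases and longer. The gene lists below are read against these shares.

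For 16 lists of genes, peaks were counted and their medians set beside the 0.25 of all tested peaks. The calls of each list are read against the 36.4% above and 17.8% below over all tested peaks. The medians ran from -0.29 in nuclear-encoded respiratory chain genes to 0.68 in long noncoding RNAs listed as nuclear. Medians are means over 3 replicates of the replicate's median, with the SD, and relative statements were checked under 13 other settings of the fit.

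**Figure D5:**
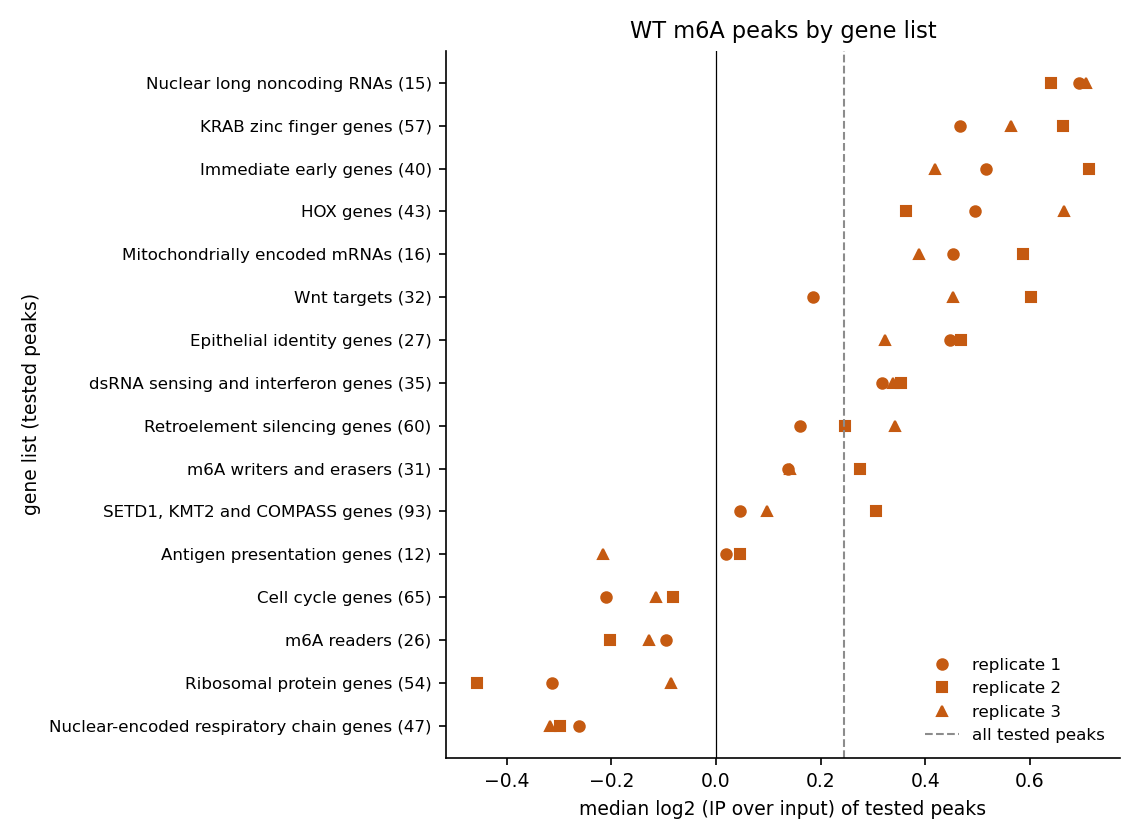
Median log2 IP over input of the tested WT peaks of each gene list in each of 3 replicates, with the number of tested peaks in brackets and the dashed line at 0.25 for all tested peaks. Long noncoding RNAs listed as nuclear and KRAB zinc finger genes lie highest (0.68 and 0.56 over replicates), and ribosomal protein and nuclear-encoded respiratory chain genes lowest (-0.29 each).

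Transcripts of the m6A machinery carried WT peaks of very different strength. All 11 writer and eraser genes had a peak, and of 31 tested peaks 14 (45.2%) lay above and 7 (22.6%) below the average, near the 36.4% and 17.8% of all tested peaks, with a median of 0.18 ± 0.08. WTAP, the adaptor of the writer complex, carried the strongest, with 507, 403 and 492 IP counts against 56, 47 and 61 input counts 910 bases into its first exon, at 1.92 ± 0.13. METTL14, the RNA-binding partner of METTL3, had 382, 277 and 339 IP counts against 71, 56 and 92 near the start of its last exon, at 1.02 ± 0.13. METTL3 had 4 peaks, with 0 above and 2 below by edgeR and by DESeq2, 0 above and 3 below at an unadjusted p under 0.05, and a highest value of -0.24 ± 0.23. The erasers showed little, with FTO at -0.13 ± 0.14 and ALKBH5 at most at 0.02 ± 0.32. With TMM factors over all 6 libraries, 10 peaks of the list lay above and 12 below.

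Of the 13 reader genes 11 had a peak, and of 26 tested peaks 6 (23.1%) lay above and 7 (26.9%) below, with a median of -0.14 ± 0.06. This median was below that of all peaks except among the upper 50% of peaks by the authors' score. The exceptions among readers were IGF2BP2, which stabilizes methylated mRNA and had 377, 269 and 432 IP counts against 50, 34 and 65 (1.68 ± 0.15), and YTHDF2, which promotes decay and had 2034, 1463 and 1807 against 353, 328 and 380 (1.14 ± 0.08). The nuclear reader YTHDC1 had a highest value of -0.14 ± 0.08, and the binding protein genes HNRNPA2B1 and HNRNPC had 0 peaks above the average and 1 below each, by edgeR, by DESeq2 and at an unadjusted p under 0.05.

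Immediate early and short-lived regulators had peaks in 25 of 27 expressed genes, 18 of 40 tested peaks above the average (45.0%, beside 36.4% of all tested peaks) and 1 below (2.50%, beside 17.8%), and a median of 0.55 ± 0.15. The list stayed above the median of all peaks in every other setting, by 0.07 to 0.56. IER5, a stress-response gene of 1 exon, had 3074, 2373 and 3029 IP counts against 344, 296 and 394 (1.86 ± 0.08). EGR1, a zinc finger transcription factor induced by growth signals, had 292, 174 and 291 against 29, 38 and 40 (1.64 ± 0.17), although its RNA-seq level was 2.14 CPM. MCL1, a short-lived survival factor, was at 1.04 ± 0.08 and KLF5, a factor of intestinal crypts, at 0.86 ± 0.09. ATF3 held the peak below the average, at -0.63 ± 0.24.

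Targets of Wnt signalling, which is active in most colorectal cancers, had a peak in 17 of 19 expressed genes, with 17 of 32 tested peaks above (53.1%) and 5 below (15.6%) and a median of 0.41 ± 0.21. Its place above the median of all peaks was lost without peaks that overlap another WT peak. JUN had 1915, 2067 and 2083 IP counts against 266, 287 and 340 (1.60 ± 0.10). This peak lay in the first of 4 exons merged over all transcripts, which need not be those of the main JUN mRNA. BMP4, a secreted growth factor, had 12546, 10308 and 12795 against 1789, 1438 and 2102 in its last exon (1.58 ± 0.07). AXIN2, a feedback inhibitor of the pathway, had a highest value of 0.96 ± 0.10 in a peak shared with another gene. MYC had 2 peaks above the average, at 0.57 ± 0.12 and 0.21, with 482, 373 and 606 IP counts against 140, 122 and 174 in the stronger. CCND1, a G1 cyclin, stood at -0.12 ± 0.13, and the crypt gene LGR5, at 1.57 CPM, had no peak.

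Homeobox genes of the HOX clusters had a peak in 25 of 27 expressed genes, 22 of 43 tested peaks above (51.2%) and 6 below, and a median of 0.51 ± 0.15. That lay above all peaks by 0.26, but below them by 0.06 without a low-count filter or in the upper 50% of peaks by the authors' score. Beside HOXA13, HOXB8 had 1559, 1358 and 1692 IP counts against 276, 260 and 282 (1.32 ± 0.08). HOXD13 and HOXB13, both posterior genes, reached 1.29 ± 0.15 and 1.22 ± 0.18.

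KRAB zinc finger genes, many of which silence retroelements, had a peak in 23 of 24 expressed genes, and 90 of their 91 peaks lay in last or long internal exons. Of 57 tested peaks 30 (52.6%) lay above and 5 (8.77%) below, with a median of 0.56 ± 0.10, and the list exceeded all peaks by 0.20 to 0.53 in every other setting. Among tested peaks of last and long internal exons alone, the list stood at 0.59 ± 0.10 beside 0.37 ± 0.02 for all genes. ZNF460 had 209, 112 and 202 IP counts against 23, 18 and 23 (1.85 ± 0.20), and ZNF445, a regulator of imprinting, 166, 124 and 172 against 31, 11 and 27 (1.57 ± 0.20). The genes are close paralogs of each other, which adds uncertainty to their counts. Most of these transcripts are scarce, with a median of 1.72 CPM per kb.

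The SETD1, KMT2 and COMPASS genes, which methylate lysine 4 of histone H3, had a peak in 19 of 20 expressed genes and 114 peaks in all. Of 93 tested peaks 29 (31.2%) lay above and 23 (24.7%) below, and the median was 0.15 ± 0.14, near that of all peaks. NCOA6 had 156, 238 and 168 IP counts against 21, 48 and 35 (1.27 ± 0.41). Its call was near the limit (adjusted p = 0.0407 by edgeR's quasi-likelihood test) and did not hold in every other setting. It was lost, for example, without replicate 3 (adjusted p = 0.155 by the same test), with the log2 value then at 1.30. KMT2D had 313, 348 and 339 against 76, 48 and 64 in a long internal exon (1.25 ± 0.14), and SETD1B 613, 504 and 569 against 108, 94 and 131 (1.17 ± 0.11).

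Retroelement silencing genes had a peak in 24 of 27 expressed genes, 27 of 60 tested peaks above (45.0%, beside 36.4% of all tested peaks) and 15 below (beside 17.8%), and a median of 0.25 ± 0.09, that of all peaks. TASOR, of the HUSH silencing complex, had 991, 745 and 834 IP counts against 163, 144 and 172 (1.25 ± 0.10), and its partner MORC2 148, 100 and 138 against 26, 28 and 25 (1.11 ± 0.19). RESF1 had all 4 of its tested peaks above the average, up to 2.18 ± 0.19 in a peak that was not well covered. TRIM28, the co-repressor of KRAB zinc finger proteins, had no WT peak.

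Genes of double-stranded RNA sensing and interferon signalling had a peak in 22 of 28 expressed genes, 14 of 35 tested peaks above (40.0%) and 6 below (17.1%), about the 36.4% and 17.8% of all tested peaks, and a median of 0.34 ± 0.02 that fell on either side of all peaks with the setting. The interferon receptor gene IFNAR1 had 191, 119 and 174 IP counts against 32, 25 and 22 (1.43 ± 0.19), and MAVS, the mitochondrial adaptor of RNA sensors, 299, 200 and 279 against 62, 45 and 58 (1.06 ± 0.14). RIGI, a sensor of viral RNA, had both of its peaks above the average, at 0.95 ± 0.25 and 0.94, the stronger shared with another gene.

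Antigen presentation genes had few peaks. In all, 8 of 21 expressed genes (38.1%) had one, against 74.1% of expressed protein-coding genes. HLA-B, at 94.1 CPM, HLA-E, at 86.9, TAP2, at 45.2, and PSMB8, at 45.1, were all expressed and had none. The HLA class I genes share near-identical stretches, so their counts are uncertain. Where peaks occurred they were on the chaperones CALR (-0.08 ± 0.08, with 24778 to 28445 IP counts and 11284 to 15659 input counts) and CANX (-0.85 ± 0.07), among others. NLRC5, the transactivator of class I genes, was at 0.22 ± 0.22 in its well covered peak, and CD276, an immune checkpoint ligand, at -0.05 ± 0.18. Of 12 tested peaks 3 lay above and 4 below.

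Cell cycle genes had a peak in 23 of 36 expressed genes, and of 65 tested peaks 11 (16.9%) lay above and 20 (30.8%) below, with a median of -0.14 ± 0.07 that stayed under all peaks in every other setting. E2F5 had 138, 134 and 189 IP counts against 33, 16 and 33 (1.32 ± 0.19) and E2F3 317, 303 and 365 against 65, 67 and 82 (1.03 ± 0.13), both E2F transcription factors. The mitotic genes CCNA2, CCNB1, CDK1, CDC20 and PLK1 had no WT peak, whereas BUB1, of the spindle checkpoint, had 2 above the average.

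Ribosomal protein genes had a peak in 40 of 77 expressed genes (51.9%, beside 74.1% of expressed protein-coding genes), 9 of 54 tested peaks above (16.7%, beside 36.4% of all tested peaks) and 24 below (44.4%, beside 17.8%), and a median of -0.29 ± 0.19. These genes have many processed copies in the genome, which makes their counts uncertain. Nuclear-encoded respiratory chain genes had a peak in 42 of 73 (57.5%), 6 of 47 above (12.8%) and 21 below (44.7%), and a median of -0.29 ± 0.03. Both medians lay below all peaks in every other setting, by 0.34 to 0.55 and by 0.37 to 0.60. Of the 2 strongest genes of each list, both of the ribosomal list had their peak in a last exon. RPL37 had 2511, 2042 and 2560 IP counts against 443, 448 and 522 at 4746 bases into a last exon of 7312 bases (1.16 ± 0.08). RPL24 had 880, 666 and 801 against 207, 169 and 224, at 1681 bases into a last exon of 1817 bases (0.80 ± 0.09). These last exons are merged over all transcripts, so both peaks may lie outside the main mRNA of the gene. SDHD and NDUFC1, of respiratory complexes II and I, were at 0.89 ± 0.15 and 0.81 ± 0.16, both with their midpoint in a first exon. The SDHD peak touches another gene on its strand. Its 241 exonic bases also reach beyond the first exon of 136 bases.

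Epithelial identity genes had a peak in 13 of 19 expressed genes, with 10 of 27 tested peaks above and 9 below. Their median was 0.41 ± 0.08 over tested peaks and -0.28 over the 16 well covered ones, so no direction can be given for the list. CLDN4, a tight junction gene, had 152, 128 and 143 IP counts against 32, 4 and 27, and its log2 value of 1.58 ± 0.28 went with replicates from 0.98 to 3.47, the highest being that with 4 input counts. ESRP2, an epithelial splicing regulator, had 640, 579 and 599 against 97, 86 and 99 (1.52 ± 0.11). CDH1, the E-cadherin gene, had 161, 125 and 147 against 28, 17 and 23.

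Among long noncoding RNAs listed as nuclear 4 of 11 expressed genes had a peak (36.4%), beside 51.3% of all genes of at least 1 CPM. Where these RNAs reside in the cell was not measured, and nuclear is only the name of the list. Of 15 tested peaks 11 lay above and 1 below, with a median of 0.68 ± 0.04. TUG1 held 12 of these peaks, 9 above the average, and the strongest well covered one had 599, 504 and 619 IP counts against 84, 138 and 120 (1.15 ± 0.14). It touches another gene, as does that of OIP5-AS1 at 0.62 ± 0.10. MALAT1, at 10917 CPM in RNA-seq, where reads of its antisense partner cannot be told apart, had 8093, 7076 and 8584 IP counts against 2938, 2361 and 2763 and a value of 0.39 ± 0.07. NORAD, at 434 CPM, had no WT peak.

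First exons were looked at once more, since antibodies to m6A also bind the related m6Am, which forms when the base next to the cap is adenosine. RefSeq gene starts lying under a well covered WT peak of at most 1000 bases above the average had A as their start base in 58 of 92 cases (63.0%). Under well covered peaks below the average it was 87 of 190 (45.8%), and under those without a call 141 of 283 (49.8%). Under peaks that were not well covered it was 320 of 572 (55.9%). At starts of expressed genes with no such peak over them it was 7221 of 15766 (45.8%). These are shares of genes and carry no test, and the transcripts that LoVo cells start at these genes were not mapped.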

How the data were processed

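The members and the gene lists were chosen with earlier results of these data known. Raw counts per peak and per gene were deposited by the authors, per the file headers. The peak table also holds, per the file headers, a fold enrichment ratio and a score deposited for each peak, which are equal in 100% of the WT peaks. The deposited p-value and FDR columns, and the authors' deposited log2 difference between genotypes, were not used. Per the labels, the MeRIP libraries were stranded and made from poly(A) RNA with UMIs of 8 bases, and the RNA-seq libraries from total RNA depleted of rRNA. The submitters' processing notes name GRCh38, Trimmomatic 0.36, Subread 1.5.1 with featureCounts, edgeR 3.12.1, bedtools and deepTools. The aligner, the peak caller and whether peaks were called on pooled libraries were not given in the sources used here.

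Peak counts were fitted by the quasi-likelihood test of edgeR 4.0.16 (R 4.3.3, robust, two-sided) after filterByExpr, with TMM factors within IP and within input. The fit was also run on simulated counts in which a small part of the peaks was moved by known folds. Far more peaks were called in the real data, so that run does not bear on the calls given here. Enrichment per replicate is the log2 of IP CPM over input CPM with 0.5 added to each. Tables were made with Python 3.11.15 and pandas 2.3.3. Peaks were placed by midpoint on the merged exons of the count table, and RefSeq (GRCh38.p14) gave gene types and sequences, matching 40163 of 61267 genes. Of the WT peaks, 1837 touch more than 1 gene of their strand and were given to the gene with the most exonic bases. Coordinates are as deposited. Since 896 peaks start 1 base before their gene and 12 at its first base, deposited starts appear to count from 0.

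Named peaks are the 15 strongest and 6 weakest with a mean of at least 20 input counts, 1 a gene, leaving out clone, LINC, pseudogene and antisense names, the 6 peaks with the most IP counts, and the 2 strongest genes of each list. Also named are the 6 genes with the most peaks and the 6 with the highest summed value over at least 3 peaks. Other genes, and the printed sequences, were chosen after their values were seen. Alternatives were other scalings and count filters, DESeq2 1.42.0, a replicate block, leaving out each replicate, the upper 50% of peaks by the authors' score, another pseudocount and other placements. Leaving out mitochondrial peaks, peaks that overlap another, peaks in several genes and peaks over 1000 bases was added after the data were seen. Some items are not reported here.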

Additional observations from a re-analysis of the deposited data

How the results depend on the processing

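Of all 16421 tested peaks, 5978 lay above and 2928 below the average. With a mean input of at least 20 counts, 3635 of 10007 tested peaks lay above, and in the upper 50% of peaks by the authors' score 2283 of 7154 lay above and 1149 below. TMM factors over all 6 libraries gave 4404 below. Leaving out 1 replicate gave 4811 to 5894 above and 2330 to 2758 below, and DESeq2 4958 and 2473. Titles give input and IP the same number, and in this protocol the input is kept from the RNA that goes to IP. Libraries of the same number are thus paired by design. The log2 values per replicate use this pairing, and the main fit leaves it out. Deviations of same-numbered libraries from the group means correlated weakly, at 0.06, 0.07 and 0.02, although each input correlated best with its own number. The fit with a replicate block, which keeps the pairing, gave 6081 above and 3075 below. It gave 11 and 2 of the 16 mitochondrial mRNA peaks and a call for MT-ATP6 (edgeR adjusted p = 1.04e-27). The difference between long and short internal exons (0.63) was 0.55 with 2 CPM added, 0.77 for the strongest peak of each gene, 0.58 with a mean input of at least 20 counts and 0.57 for peaks of at most 1000 bases. The share of peaks in last and long internal exons (76.8%) was 69.2% by peak start, 72.1% with a mean input of at least 20 counts, 77.5% for the strongest peak of each gene, 84.2% in the upper 50% by score and 77.4% for peaks in 1 gene only. The share of expressed coding genes with a peak was 81.9% from 10 CPM. Of the 100 strongest peaks, 25 stayed when the minimum of 20 counts was taken over all 6 libraries, 6 when ranked by the authors' fold, and 83 to 85 without 1 replicate. Of 734 values of 58 named peaks under 13 settings, 13 lost and 6 gained a call, and 0 reversed. Besides MT-ND1, MT-ND4, MT-ATP6 and NCOA6, these were RPL24, NDUFC1 and CD276, in the upper 50% by score only. The causes were not tested. Depth limits the 7881 peaks that were not tested, 637 of which have no input read.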
